A study of Mus musculus with 36 samples.

Results

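The 10 genes T, Eomes, Mixl1, Fgf8, Wnt3, Nkx1-2, Sp5, Axin2, Notum and Cdx1 were taken by symbol from a table of 54842 genes, measured by RNA-seq in 36 libraries of mouse embryonic stem cells. They are genes of the primitive streak and targets of Wnt signalling. Cells were transfected with the construct LiTEC or were wild type (WT). Each kind of cell was kept in the dark or lit with blue light for 30 min, and RNA was extracted 0, 1 or 4 h later, which gave 12 groups of 3 libraries. All groups, the WT and dark ones included, had doxycycline at 2 µg/ml for 2 days before and grew in serum-free medium with an inhibitor of MEK, an inhibitor of GSK3β and leukaemia inhibitory factor. The labels do not spell out the name LiTEC, and they do not say whether the transfected cells were 1 clone or a pool, so the construct and the history of its cell line cannot be told apart. Replicate 1 of every group was in batch 1, and replicates 2 and 3 were in batch 2. Nothing in the labels says that the replicates of a group came from different cultures, so each p-value is set against a spread among libraries that may be technical.

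In the Wnt pathway, secreted ligands act through Frizzled and LRP receptors to stop a destruction complex of Axin, APC and the kinase GSK3 from marking β-catenin for breakdown. β-catenin then joins TCF and LEF proteins on DNA and raises the transcription of target genes, some of which feed back as inhibitors. An inhibitor of GSK3β stabilises β-catenin without a ligand. In the mouse embryo this pathway, with Nodal and FGF signals, starts the primitive streak, where epiblast cells turn into mesoderm and endoderm, and embryonic stem cells can switch on the same genes when they leave the naive state. Among the 10 genes, Wnt3 and Fgf8 encode secreted signals. T (Brachyury) and Eomes encode T-box factors of the streak, and Mixl1, Nkx1-2 and Cdx1 encode homeodomain factors of the streak, of its posterior end and of the axial pattern. Sp5 is a zinc finger factor induced by Wnt. Axin2 is a scaffold of the destruction complex and a feedback inhibitor of the pathway, and Notum is a secreted enzyme that removes the lipid of Wnt ligands.

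The promoters of Sp5, T and Axin2 are shown because T had the largest difference between the genotypes, and Sp5 had the largest and Axin2 the most precise difference between the batches over all libraries. Within 1 genotype, Nkx1-2 in LiTEC and Cdx1 in WT cells had a larger batch difference than Sp5. They are the RefSeq sequences of GRCm38.p6, from 250 bases before to 50 after the annotated start, written 5′ to 3′ on the gene's strand. Capitals mark CTTTGA, the core bound by TCF and LEF factors, or its reverse complement TCAAAG. The Sp5 promoter is chr2:70474673-70474972 on the plus strand, that of T is chr17:8434173-8434472 on the plus strand, and that of Axin2 is chr11:108920099-108920398 on the plus strand.
Sp5: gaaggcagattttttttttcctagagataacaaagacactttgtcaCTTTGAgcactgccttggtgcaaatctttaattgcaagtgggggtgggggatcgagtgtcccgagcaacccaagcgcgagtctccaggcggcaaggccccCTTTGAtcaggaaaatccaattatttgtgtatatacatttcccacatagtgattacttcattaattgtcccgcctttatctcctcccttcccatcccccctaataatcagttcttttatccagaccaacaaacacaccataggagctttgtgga
T: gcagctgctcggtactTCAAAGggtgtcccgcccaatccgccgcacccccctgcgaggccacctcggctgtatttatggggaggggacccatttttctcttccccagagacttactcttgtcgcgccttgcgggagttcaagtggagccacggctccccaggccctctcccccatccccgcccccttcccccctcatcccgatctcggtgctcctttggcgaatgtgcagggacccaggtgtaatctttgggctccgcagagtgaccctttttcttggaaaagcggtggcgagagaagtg
Axin2: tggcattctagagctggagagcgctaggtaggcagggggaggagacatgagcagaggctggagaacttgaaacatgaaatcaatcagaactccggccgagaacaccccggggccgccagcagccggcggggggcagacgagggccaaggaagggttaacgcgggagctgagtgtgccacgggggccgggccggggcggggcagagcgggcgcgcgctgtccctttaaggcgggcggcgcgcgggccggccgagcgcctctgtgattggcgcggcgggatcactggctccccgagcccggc
The Sp5 promoter held CTTTGA at positions -204 to -199 and -104 to -99 relative to the annotated start, and the T promoter held it on the minus strand at -234 to -229. On either strand the motif was in 2 of the 6 promoters that matched a member (Sp5, Nkx1-2, Eomes, Wnt3, Axin2 and T) and in 5257 of all 32851 promoters of that length, or 16.0%. The longer forms CTTTGAA and CTTTGAT, which contain it, were in the same 2 promoters and in 8.65% of all promoters. The letters CTTTGA are not in the window shown for Axin2.

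In GRCm38, the genes lie at chr17:8434423-8442496 for T, chr9:118478212-118486132 for Eomes, chr1:180693043-180697034 for Mixl1 and chr19:45736798-45742915 for Fgf8. Wnt3 is at chr11:103774150-103817957, Nkx1-2 at chr7:132594878-132599637 and Sp5 at chr2:70474923-70477729. Axin2 is at chr11:108920349-108950783, Notum at chr11:120653788-120661175 and Cdx1 at chr18:61018862-61036199. All are annotated as protein coding, and each count is a sum over the gene's exons. Nkx1-2 overlaps Fgfr2 on the same strand, and Eomes, Nkx1-2, Axin2 and Notum overlap the non-coding genes Gm33460, Gm16764, Gm11670 and Notumos on the other, so their counts are uncertain where reads could be shared.

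Library totals ran from 11132970 to 21842256 counts, and all 10 genes passed the filter on low counts that left 18193 genes. The cells had the marks of their label: Pou5f1 was at 307 to 500.0 CPM (counts per 1000000 counts), Sox2 at 200.5 to 328 CPM and Nanog at 279.9 to 590 CPM over all libraries. The 10 pluripotency markers summed to 2663 to 4256 CPM, and the 8 fibroblast and feeder markers to 2.07 to 9.58 CPM. Sums were 5.90 to 17.2 CPM for 7 primitive endoderm markers, 41.1 to 91.4 CPM for 6 neuroectoderm markers and 58.5 to 124.8 CPM for 7 trophectoderm markers, of which Eomes is 1. The non-coding gene Gm26917 took 8.12 to 26.1% of a library's counts, with a median of 9.87%.

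Per exon length, Notum and Axin2 stood above the other 8 genes in both genotypes. In LiTEC cells, Notum averaged 6.59 ± 1.60 RPKM (reads per kilobase of exon, scaled to library size) and Axin2 6.34 ± 2.86 RPKM (SD, n = 18). Their order turned with the batch: in LiTEC cells of batch 2, Notum averaged 5.85 ± 1.31 RPKM and Axin2 8.20 ± 1.11 RPKM (n = 12), and in those of batch 1, Notum averaged 8.08 ± 0.989 RPKM and Axin2 2.63 ± 0.496 RPKM (n = 6). In WT cells, Notum averaged 16.8 ± 2.59 RPKM and Axin2 7.005 ± 3.06 RPKM (SD, n = 18). The other 8 genes averaged 0.143 RPKM (Wnt3) to 1.56 RPKM (Cdx1) in LiTEC cells, and 0.266 RPKM (Mixl1) to 2.17 RPKM (Nkx1-2) in WT cells. In WT cells Nkx1-2, Sp5, T and Eomes, at 2.17 ± 1.51, 2.01 ± 1.39, 2.00 ± 0.502 and 2.00 ± 0.902 RPKM, did not differ beyond their spread.

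**Figure D1:**
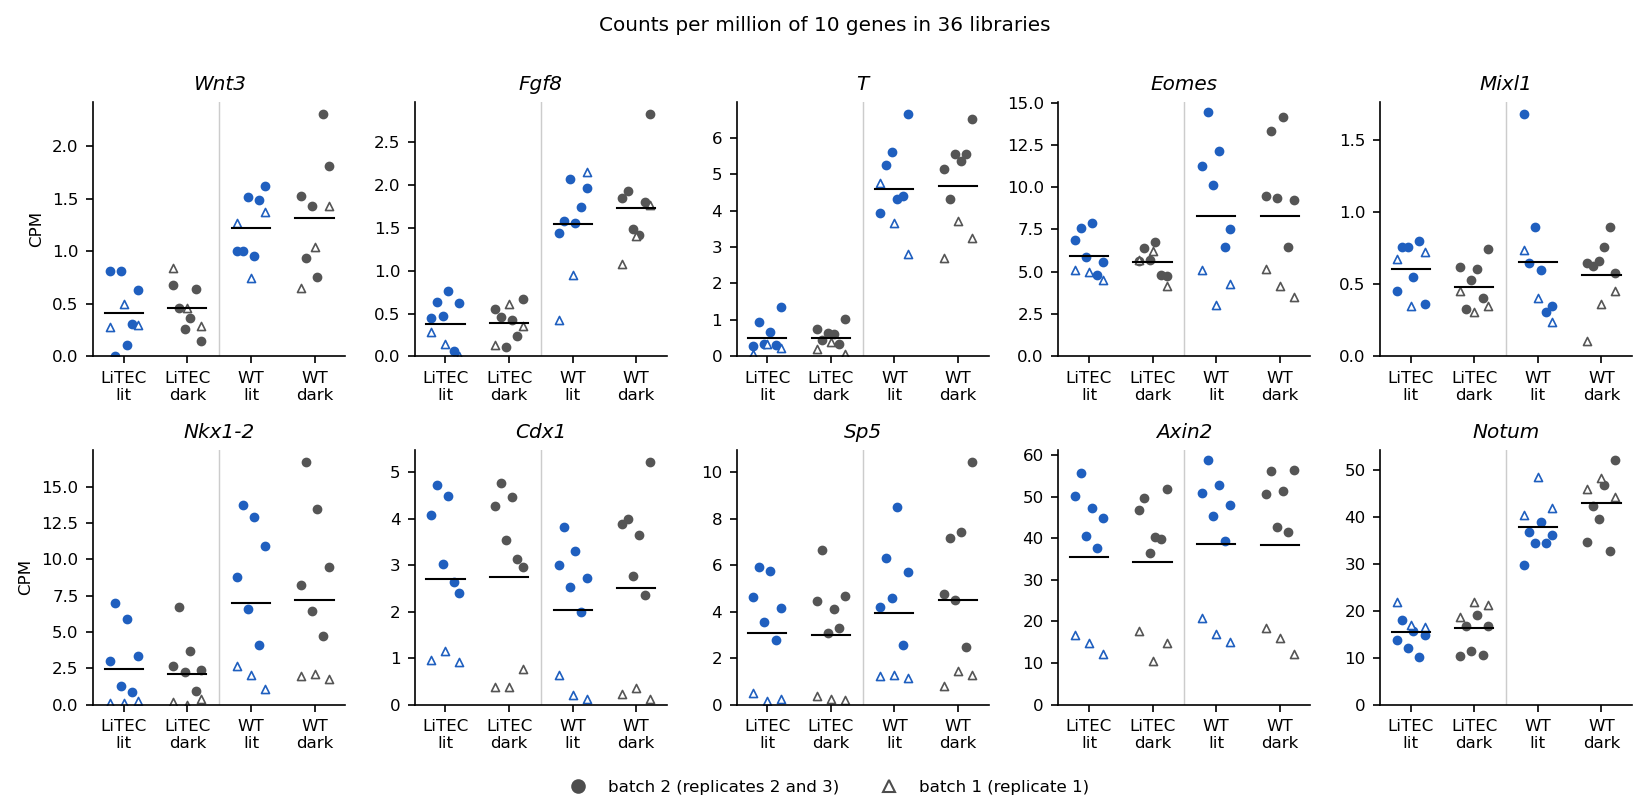
Level of each of the 10 genes in CPM (linear axis from 0), in every library; columns are LiTEC lit, LiTEC dark, WT lit and WT dark cells, filled circles are batch 2, open triangles are batch 1, and the black line is the mean of the 9 libraries. T and Notum separate the LiTEC from the WT libraries, while Axin2, Sp5 and Cdx1 separate batch 2 from batch 1.

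The first question was whether LiTEC cells differed from WT cells in these genes without light. In the dark, 7 of the 10 genes fell in LiTEC cells and none rose, by edgeR's quasi-likelihood test at a Benjamini-Hochberg adjusted p below 0.05. Of all tested genes 47.6% were called in this comparison, and 23.7% were called lower. The median log2 fold change was -1.05 over the 10 genes and 0.00 over all genes. The streak factor T fell most, followed by the signal Fgf8, the posterior factor Nkx1-2, the ligand Wnt3 and the Wnt inhibitor Notum, and falls of Sp5 and Eomes were smaller. Same-numbered libraries deviated together, and each genotype's libraries share a few replicate numbers. The fit takes them as independent, so the p-values between genotypes, here and below, may be too small. Since LiTEC and WT libraries of the same number also deviated together, those p-values may instead be too large. In such bulk samples, fewer cells that express a gene and less RNA per cell cannot be told apart.

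Of the signals, Wnt3 had a lowest, median and highest level of 0.148, 0.457 and 0.839 CPM in the 9 dark LiTEC libraries, against 0.648, 1.43 and 2.30 CPM in the 9 dark WT libraries. The highest LiTEC libraries reached into the range of the WT ones. The log2 fold change was -1.51 ± 0.30 (SE, adjusted p = 8.72e-05). Fgf8 had 0.106, 0.423 and 0.667 CPM in dark LiTEC cells, against 1.08, 1.77 and 2.82 CPM in dark WT cells. The groups did not overlap, and the log2 fold change was -2.15 ± 0.30 (adjusted p = 3.39e-07). How many of all tested genes had groups that did not overlap was not counted, here and below. Both were low: the highest count of Fgf8 in a dark LiTEC library was 9 reads.

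T, or Brachyury, is required for mesoderm formation. Its lowest, median and highest levels were 0.0581, 0.462 and 1.04 CPM in dark LiTEC libraries, against 2.70, 5.14 and 6.52 CPM in dark WT libraries. Every LiTEC library lay below every WT library. The log2 fold change was -3.25 ± 0.24 (adjusted p = 3.9e-13), a 9.54-fold lower level. Nkx1-2, a factor of the posterior streak and its progenitors, had 0, 2.22 and 6.74 CPM in dark LiTEC cells, against 1.77, 6.44 and 16.7 CPM in dark WT cells. Its ranges overlapped over all dark libraries and within batch 2, at 0.93 to 6.74 CPM in LiTEC and 4.72 to 16.7 CPM in WT cells, and not within batch 1, at 0 to 0.349 CPM in LiTEC and 1.77 to 2.13 CPM in WT cells. LiTEC was below WT in all 18 pairs of libraries that shared light, time and replicate. The log2 fold change was -1.91 ± 0.34 (adjusted p = 1.63e-05). Eomes, the T-box factor of early streak and definitive endoderm, had 4.18, 5.67 and 6.76 CPM in dark LiTEC cells and 3.48, 9.27 and 14.2 CPM in dark WT cells. It was called at -0.50 ± 0.16 (adjusted p = 0.0092), with ranges that overlapped in full. The call was lost with no batch term (edgeR adjusted p = 0.0594), and in batch 1 alone the difference of log2(CPM + 0.5) was 0.30, in the other direction. Mixl1, a homeodomain factor of streak and endoderm, had 0.305, 0.452 and 0.741 CPM in dark LiTEC cells and 0.108, 0.624 and 0.899 CPM in dark WT cells, with a difference of -0.21 ± 0.26 that was not called (adjusted p = 0.527).

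Of Notum, Axin2, Sp5 and Cdx1, Notum fell most, though less than T. It had 10.4, 16.7 and 21.7 CPM in dark LiTEC cells, against 32.6, 44.1 and 52.0 CPM in dark WT cells. The groups did not overlap, and the log2 fold change was -1.42 ± 0.10 (adjusted p = 2.44e-13), a 2.68-fold lower level with the narrowest error of the called genes. Axin2, in contrast, had 10.4, 39.8 and 51.8 CPM in dark LiTEC cells and 12.1, 42.7 and 56.5 CPM in dark WT cells. Its difference of -0.16 ± 0.07 was not called (adjusted p = 0.0566), and was called with a replicate block at an adjusted p of 0.00481. The 95% interval from the edgeR fit, -0.30 to -0.02, places it well short of the fall of Notum. Sp5 had 0.174, 3.31 and 6.67 CPM in dark LiTEC cells and 0.809, 4.52 and 10.4 CPM in dark WT cells, and was called at -0.68 ± 0.25 (adjusted p = 0.0277). That call was lost without any 1 of 6 libraries, replicate 2 of a dark LiTEC group or replicate 3 of a dark WT group at any of the 3 times, with values of -0.39 to -0.64. Cdx1, a caudal-type factor, had 0.381, 3.14 and 4.76 CPM in dark LiTEC cells and 0.114, 2.75 and 5.21 CPM in dark WT cells, and its difference of 0.18 ± 0.21 was not called (adjusted p = 0.492).

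The lit libraries are not shared with the dark ones, but same-numbered pairs deviated together and the same fit held both. The results in lit and dark cells are therefore not independent. Lit cells gave 6 called genes, all lower, where 43.4% of all tested genes were called and 21.2% were called lower. T had 0.0563, 0.347 and 1.36 CPM in lit LiTEC cells, against 2.80, 4.41 and 6.65 CPM in lit WT cells, a log2 fold change of -3.20 ± 0.24 (adjusted p = 4.55e-13). Notum had 10.2, 15.6 and 21.8 CPM in lit LiTEC cells, against 29.7, 36.8 and 48.4 CPM in lit WT cells, a log2 fold change of -1.29 ± 0.10 (adjusted p = 3.21e-12). Neither gene's ranges overlapped. Fgf8 fell by 2.00 ± 0.30, Nkx1-2 by 1.65 ± 0.32 and Wnt3 by 1.58 ± 0.31 on the log2 scale. Without replicate 3 of lit LiTEC at 4 h, Fgf8 was at -2.88. Eomes fell by 0.40 ± 0.16 (adjusted p = 0.0365), a call that stood in 8 of the 18 fits that left out 1 library. It was lost, at -0.32 to -0.40, without replicate 2 of a lit LiTEC group at any time, its replicate 3 at 0 or 4 h, replicate 3 of a lit WT group at any time, replicate 2 of lit WT at 1 h or replicate 1 of lit WT at 4 h. Sp5 at -0.47 ± 0.26 (adjusted p = 0.141), Cdx1 at 0.51 ± 0.21 (adjusted p = 0.0506), Axin2 at -0.14 ± 0.07 (adjusted p = 0.0957) and Mixl1 at 0.07 ± 0.24 (adjusted p = 0.848) were not called. With a replicate block, Sp5, Cdx1 and Axin2 were called too, at adjusted p-values of 0.0413, 0.0338 and 0.0129 by edgeR. DESeq2 also called Cdx1, at 0.62 (adjusted p = 0.0191).

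**Figure D2:**
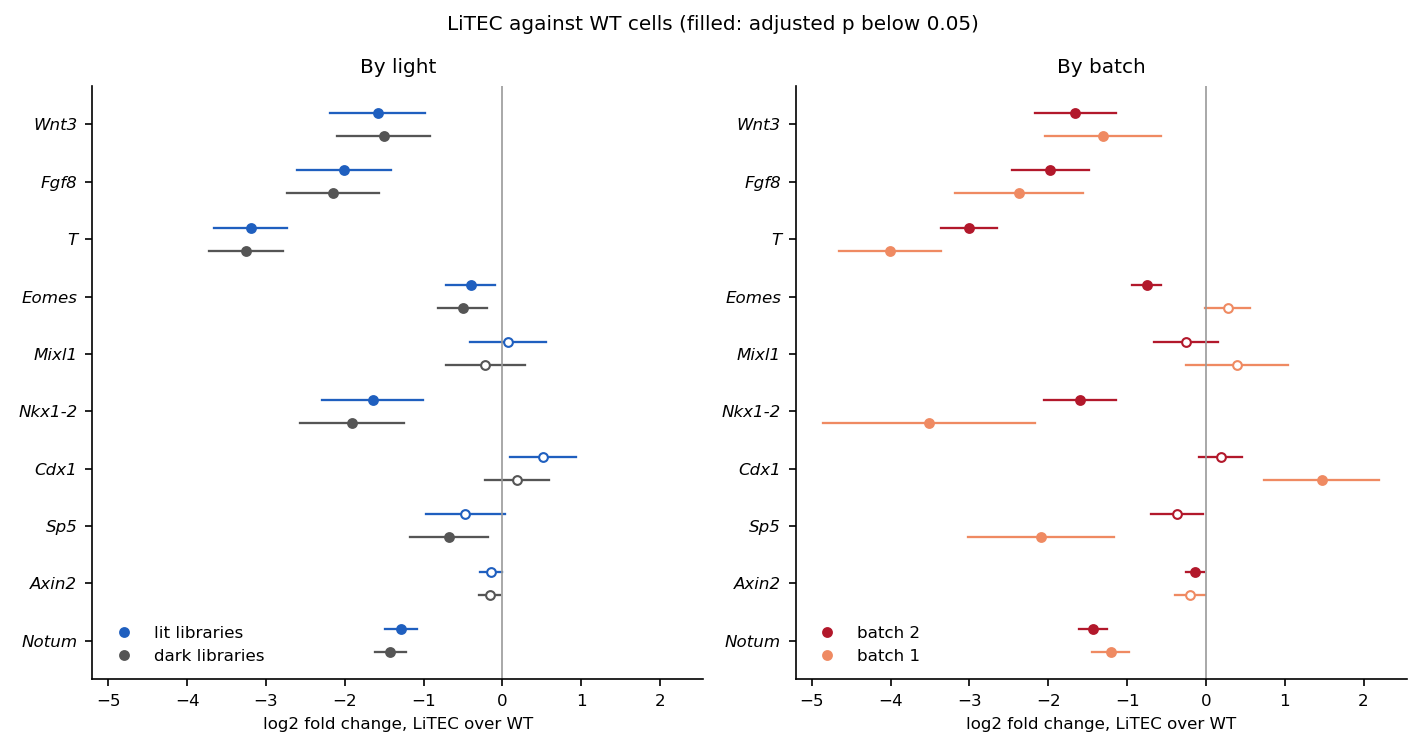
Log2 fold change of LiTEC over WT cells for each gene (point) with 1.96 standard errors on each side (line), in lit and dark libraries on the left and in batch 2 and batch 1 on the right; filled points have an adjusted p below 0.05. T, Fgf8, Nkx1-2, Wnt3 and Notum lie below 0 in all 4 estimates, whereas Eomes lies at -0.75 in batch 2 and 0.28 in batch 1.

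Because the batches differed in these genes, LiTEC and WT cells were also compared within each batch, over all lights and times, in a fit that gave each genotype a separate batch term and was chosen after the counts had been seen. Batch 1 is a single replicate set and batch 2 holds 2, so p-values within either rest on libraries that are not independent. In batch 2, 7 genes fell and none rose, against 52.2% of all genes called and 25.6% called lower. In batch 1, 6 genes fell and 1 rose, against 38.7% of all genes called, with 19.2% of all genes called lower and 19.4% called higher. T, Fgf8, Nkx1-2, Wnt3 and Notum fell in both. T fell by 3.01 ± 0.18 in batch 2 and by 4.01 ± 0.33 in batch 1 on the log2 scale, and Notum fell by 1.43 ± 0.09 in batch 2 and by 1.21 ± 0.12 in batch 1. The T counts behind the batch 1 value were 21 reads in all over 6 LiTEC libraries.

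The calls of Eomes, Sp5, Cdx1 and Axin2 differed between the batches. By edgeR, the difference between the batches was itself called for Eomes alone, and DESeq2 called it for Eomes, Sp5 and Cdx1. Eomes averaged 6.05 ± 1.06 CPM in LiTEC cells (SD, n = 12) and 10.3 ± 2.78 CPM in WT cells (n = 12) of batch 2, and 5.13 ± 0.751 CPM in LiTEC cells (n = 6) and 4.21 ± 0.856 CPM in WT cells (n = 6) of batch 1. LiTEC was below WT in 12 of 12 matched pairs of batch 2 and above it in 6 of 6 matched pairs of batch 1. The log2 fold changes were -0.75 ± 0.09 in batch 2 (edgeR adjusted p = 3.12e-08) and 0.28 ± 0.15 in batch 1 (adjusted p = 0.139). Sp5 was not called in batch 2, at -0.37 ± 0.17 (edgeR adjusted p = 0.0641), and fell by 2.09 ± 0.47 in batch 1 (adjusted p = 0.000574). Cdx1 was not called in batch 2, at 0.19 ± 0.14, and rose by 1.47 ± 0.37 in batch 1 (edgeR adjusted p = 0.00186), where LiTEC was above WT in 6 of 6 pairs. Axin2 was called in batch 2 at -0.14 ± 0.06 (edgeR adjusted p = 0.0474) and not in batch 1, at -0.20 ± 0.10 (adjusted p = 0.111). These values of Axin2 lay within their errors of each other.

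Other genes of the pathway were read from lists of 22 further Wnt targets, 43 Wnt ligands, receptors and transducers, and 28 further streak and mesendoderm genes. Of the 17 further targets tested, 2 rose and 8 fell in dark LiTEC cells, and 2 rose and 7 fell in lit LiTEC cells; their median log2 fold change in the dark was -0.51, against 0.00 over all genes. Beside these counts, and those of the other lists, stand the shares of all genes called, 47.6% in the dark (23.9% higher, 23.7% lower) and 43.4% in the light (22.2% higher, 21.2% lower). Lef1, itself a partner of β-catenin on DNA, averaged 12.5 ± 6.46 CPM in dark LiTEC cells and 39.5 ± 16.1 CPM in dark WT cells (log2 fold change -1.69 ± 0.15, edgeR adjusted p = 5.01e-11). Wnt8a, a ligand of the streak, fell by 1.46 ± 0.27, and Ascl2, a basic helix-loop-helix target factor, rose by 2.08 ± 0.26. Of the 42 transducers tested, 15 rose and 13 fell in dark LiTEC cells. Wls, which carries Wnt ligands to the cell surface, rose by 1.21 ± 0.07, and the ligand Wnt5a fell by 1.51 ± 0.21. Of the 22 streak and mesendoderm genes tested, 4 rose and 11 fell, among them Fgf17 (-1.10 ± 0.13) and Fgf5 (-2.18 ± 0.33) and, rising, the receptor gene Kdr (1.54 ± 0.12). Marker sums of other cell types also differed between genotypes. Primitive endoderm markers summed to 8.58 to 17.2 CPM in LiTEC libraries and 5.90 to 11.6 CPM in WT libraries, and neuroectoderm markers to 41.1 to 68.9 CPM in LiTEC libraries and 67.0 to 91.4 CPM in WT libraries. Dab2 averaged 5.47 CPM in LiTEC and 2.73 CPM in WT cells, and Gata4 3.85 and 2.17 CPM. Gata6, Sox17 and Pdgfra were also higher in LiTEC cells. Sox7 went the other way, at 0.425 CPM in LiTEC and 1.52 CPM in WT cells, and Foxq1 was at 0.231 and 0.230 CPM. Most of the neuroectoderm sum was Tubb3, at a mean of 48.3 CPM in LiTEC and 64.2 CPM in WT cells. Pax6 was at 3.45 CPM in LiTEC and 6.38 CPM in WT cells, and Sox1 at 5.96 CPM in LiTEC and 6.21 CPM in WT cells. Of the 10 pluripotency markers, 2 rose and 7 fell in dark LiTEC cells, and 2 rose and 4 fell in lit LiTEC cells. Fibroblast and feeder markers summed to 2.07 to 6.48 CPM in LiTEC libraries and 4.55 to 9.58 CPM in WT libraries. Of the 8, 4 were tested, and 3 fell and none rose in dark and in lit LiTEC cells. Col1a1 averaged 1.39 CPM in LiTEC and 3.12 CPM in WT cells, while Dcn was at 0 in 33 and Lum at 0 in 34 of the 36 libraries. The part of these sums in the results was not tested.

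The second question was whether blue light changed the 10 genes. No gene was called in any of the 12 comparisons of lit with dark cells by edgeR. In LiTEC cells, 0 of 10 were called at 0, 1 and 4 h, against 0.934%, 0.115% and 0.011% of all tested genes. In WT cells, 0 of 10 were called at 0, 1 and 4 h, against 2.86%, 0.286% and 0% of all tested genes. For the mean over both genotypes the shares of all genes were 5.37%, 1.14% and 0.275% at 0, 1 and 4 h, and for the difference of the light effect between LiTEC and WT they were 0.022%, 0% and 0%, with 0 of 10 genes called in each. At an unadjusted p below 0.05, 1 gene passed in LiTEC cells at 1 h, 1 in WT cells at 0 h, 1 in WT cells at 4 h, 1 in the mean at 0 h, 1 in the difference at 4 h and none in the other 7 comparisons. Of all 18193 tested genes, 1138, 2491, 1484, 2935 and 657 passed in the comparisons named, in that order. In the other 7, 378 to 2030 of all genes passed. DESeq2 also called 0 of 10 in all 12.

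Axin2, the most precisely measured readout of the pathway, set the tightest limits. At 0 h it had 16.7, 50.3 and 55.7 CPM in lit LiTEC cells and 17.8, 46.8 and 49.7 CPM in dark LiTEC cells, replicates 1 to 3, a log2 fold change of 0.08 ± 0.12 (95% interval -0.16 to 0.32). At 1 h it had 14.8, 40.6 and 47.4 CPM in lit LiTEC cells and 10.4, 36.6 and 40.5 CPM in dark LiTEC cells. It was higher with light in all 3 replicates, by 0.26 ± 0.12, which was not called (edgeR adjusted p = 0.755). At 4 h it had 12.3, 37.6 and 44.8 CPM in lit LiTEC cells and 14.8, 39.8 and 51.8 CPM in dark LiTEC cells, lower with light in all 3, by -0.18 ± 0.12 (edgeR adjusted p = 0.89). In WT cells the log2 fold changes of Axin2 were 0.08, 0.07 and -0.04 at 0, 1 and 4 h, each ± 0.12. Over the 18 pairs of a lit and a dark library that shared genotype, time and replicate, Axin2 was higher with light in 12.

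Notum had log2 fold changes of 0.24 ± 0.19, -0.20 ± 0.19 and -0.20 ± 0.19 in LiTEC cells at 0, 1 and 4 h, and of -0.20, -0.16 and -0.20, each ± 0.17, in WT cells. Eomes stayed within 0.14 of 0 on the log2 scale in all 6 within-genotype comparisons, with standard errors of 0.25 to 0.29. The low genes gave wide intervals. T in LiTEC cells was at -0.12 ± 0.62, -0.24 ± 0.57 and 0.55 ± 0.56 at 0, 1 and 4 h, and Wnt3 was at -1.02 ± 0.62 at 0 h, and their intervals, -1.34 to 1.11 for T and -2.24 to 0.20 for Wnt3 at 0 h, leave room for a log2 change of -1.

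The largest values with light belonged to Mixl1 in WT cells. At 0 h it had 0.740, 1.68 and 0.647 CPM in lit WT cells and 0.108, 0.648 and 0.624 CPM in dark WT cells, higher with light in all 3 replicates, by 1.18 ± 0.41 (edgeR adjusted p = 0.12). Leaving out replicate 3 of the lit group brought it past the threshold, at 1.48 (edgeR adjusted p = 0.0498). At 4 h it had 0.239, 0.311 and 0.347 CPM in lit WT cells and 0.456, 0.899 and 0.579 CPM in dark WT cells, a difference of -1.10 ± 0.48 (edgeR adjusted p = 0.561) between groups that did not overlap. The counts behind these levels were 2 to 27 reads per WT library. In LiTEC cells its values were 0.48 ± 0.45, 0.18 ± 0.44 and 0.37 ± 0.44 at 0, 1 and 4 h, and the difference between genotypes was -0.70 ± 0.61, 0.09 ± 0.61 and 1.47 ± 0.65, none of them called.

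**Figure D3:**
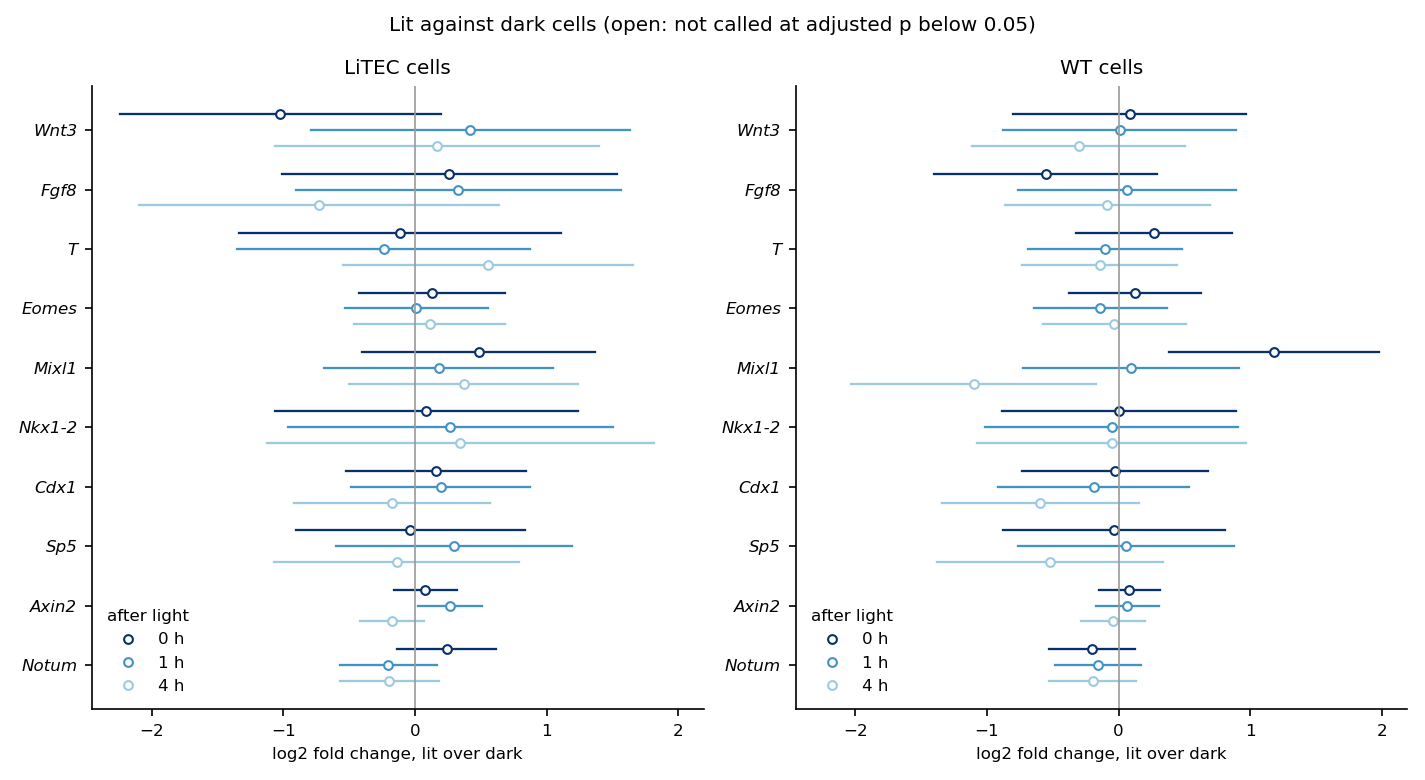
Log2 fold change of lit over dark cells for each gene (point) with 1.96 standard errors on each side (line), at 0, 1 and 4 h after the light period, in LiTEC cells on the left and WT cells on the right. All points are open, since none had an adjusted p below 0.05, and the lines of Axin2 are the shortest while those of Wnt3, Fgf8, T and Nkx1-2 in LiTEC cells are the widest.

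The further Wnt targets gave 0 called of 17 in all 12 light comparisons. Of the 42 transducers, the receptor Lgr4 fell by 0.25 ± 0.06 in lit WT cells at 1 h (edgeR adjusted p = 0.0463). In the mean over genotypes at 1 h, Lgr4 and Fzd6 fell by 0.22 ± 0.04 and 0.43 ± 0.11, and the β-catenin cofactor Bcl9l rose by 0.35 ± 0.08. Of the 22 streak and mesendoderm genes, up to 3 were called in a comparison, among them Snai1, a repressor of epithelial genes, which rose with light at 0 h by 0.98 ± 0.24 in LiTEC cells (edgeR adjusted p = 0.0333) and by 1.21 ± 0.24 in WT cells (adjusted p = 0.002).

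The third comparison was over time, as the mean of both genotypes, within lit and within dark cells. In lit cells, 2 of 10 genes were lower at 4 h than at 0 h and none was higher, where 13.5% of all tested genes were called and 6.42% were called lower. Axin2 fell by 0.38 ± 0.09 on the log2 scale (edgeR adjusted p = 0.00257), and at 4 h was below 0 h in all 6 sets of genotype and replicate. In lit LiTEC cells Axin2 had 16.7, 50.3 and 55.7 CPM at 0 h, 14.8, 40.6 and 47.4 CPM at 1 h, and 12.3, 37.6 and 44.8 CPM at 4 h, in replicates 1 to 3. In lit WT cells it had 20.9, 51.0 and 58.8 CPM at 0 h, 16.9, 45.4 and 52.9 CPM at 1 h, and 15.1, 39.3 and 48.1 CPM at 4 h. It declined at each step in every one of these series. Mixl1 fell by 0.91 ± 0.31 (edgeR adjusted p = 0.0462), but 2 of the 3 LiTEC replicates were higher at 4 h and 3 of 3 WT replicates were lower, and the call stood in 3 of the 12 fits that left out 1 library: without replicate 2 of lit LiTEC or replicate 3 of lit WT at 0 h, or replicate 1 of lit LiTEC at 4 h. In the other 9 fits it was at -0.70 to -0.96. In batch 2 alone Axin2 was at -0.34 and was not called (edgeR adjusted p = 0.0844).

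Replicate numbers paired the libraries. With the replicate block, which called 3351 of all 18193 tested genes at 4 h in lit cells, 5 of 10 genes were called. These were Axin2 and Mixl1, and Eomes (-0.55, edgeR adjusted p = 0.0184), Nkx1-2 (-0.96, adjusted p = 0.00221) and Cdx1 (-0.68, adjusted p = 0.038). Without the block, with a batch term alone, the last 3 were at -0.54 ± 0.19 (edgeR adjusted p = 0.0593), -0.91 ± 0.41 (adjusted p = 0.139) and -0.69 ± 0.27 (adjusted p = 0.0843). Eomes, Cdx1 and Sp5 were lower at 4 h than at 0 h in 6 of 6 lit sets and Nkx1-2 in 5 of 6. T and Wnt3 did not follow: each was higher at 4 h in 5 of 6 lit sets, by 0.25 ± 0.32 and 0.39 ± 0.40, and neither was called.

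In dark cells, 0 of 10 genes were called at 4 h against 0 h, where 15.5% of all tested genes were called. DESeq2 called 0 as well. At an unadjusted p below 0.05 by edgeR, 3 of the 10 passed, beside 5267 of all 18193 tested genes. Eomes was at -0.46 ± 0.20 (edgeR adjusted p = 0.116) and was lower in 6 of 6 sets, Nkx1-2 was at -1.01 ± 0.43 (adjusted p = 0.104) and was lower in 5 of 6, and Axin2 was at -0.19 ± 0.09 (adjusted p = 0.136) and was lower in 4 of 6. With the replicate block 2 genes were called, Nkx1-2 (edgeR adjusted p = 0.00181) and Axin2 (adjusted p = 0.0176), where 3835 of all 18193 tested genes were called. At 1 h against 0 h, 0 of 10 genes were called in dark cells, where 1.31% of all tested genes were called, and 0 of 10 in lit cells, where 9.66% were. Axin2 was lower at 1 h in all 6 dark sets, by -0.31 ± 0.09 (edgeR adjusted p = 0.0624), and in all 6 lit sets, by -0.23 ± 0.09 (adjusted p = 0.0972). With the replicate block both were called, at adjusted p-values of 0.00152 and 0.00679 by edgeR, and DESeq2 called the dark one and not the lit one. At 1 h the block called 526 of all 18193 tested genes in dark cells and 2384 in lit cells. Without the block, Axin2 was the 1 gene of the 10 with an unadjusted p below 0.05 in dark and in lit cells. Of all tested genes, 2237 in dark and 3897 in lit cells passed that threshold. Among the 17 further Wnt targets, 2 fell and none rose in lit cells at 4 h, Myc by 1.36 ± 0.18 and Bmp4 by 0.60 ± 0.12, and in dark cells 1 rose and 2 fell, with Myc at -1.06 ± 0.18 and Bmp4 at -0.48 ± 0.12.

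**Figure D4:**
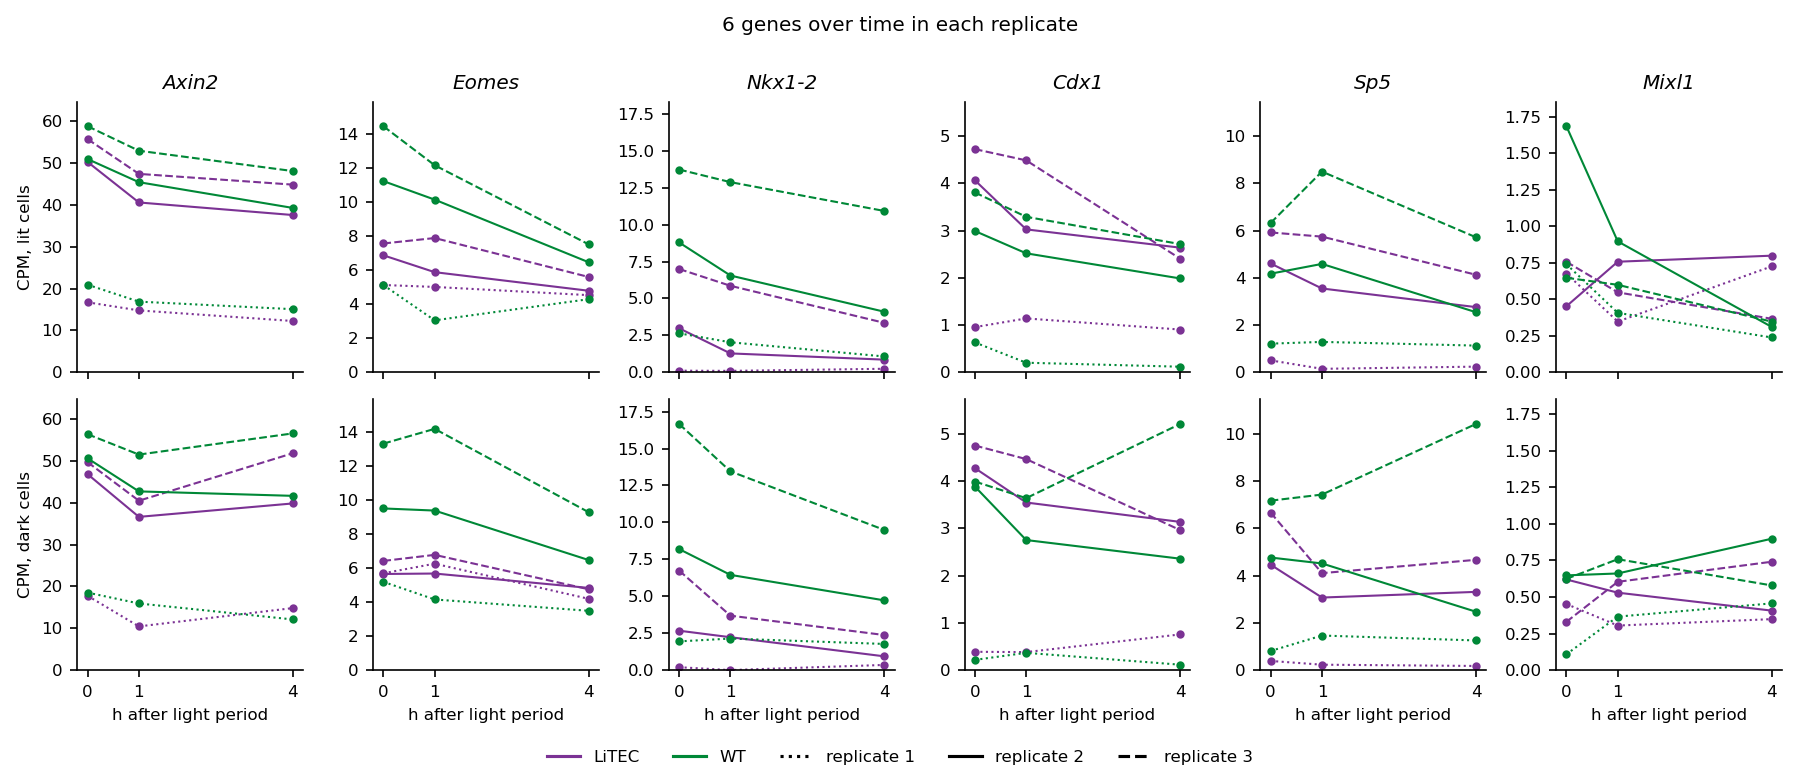
Level in CPM (linear axis from 0) of 6 genes at 0, 1 and 4 h after the light period, in lit cells in the upper row and dark cells in the lower row; each line joins the libraries of 1 genotype (colour) and replicate (line type). Axin2 declines at each step in all 6 lit series, replicate 1 is lowest for Axin2, Cdx1 and Sp5 in each genotype, and Mixl1 has no common direction in LiTEC cells.

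The largest differences in several of these genes were between the 2 labelled batches, a comparison chosen after the counts had been seen. Over all libraries, 8 of 10 genes rose and 1 fell in batch 2 (24 libraries) relative to batch 1 (12 libraries), where 40.5% of all tested genes were called, 20.4% higher and 20.1% lower. The median log2 fold change was 0.75 over the 10 genes and 0.00 over all genes. What the batches were is not given, and replicate 1 is the only replicate of batch 1, so batch and replicate number cannot be told apart. Libraries with the same replicate number deviated together, so each genotype has 1 replicate set in batch 1 and 2 in batch 2. The fit takes the libraries as independent, and its p-values for the batch comparisons and within batch 1 are therefore too small. Those between LiTEC and WT cells, over all libraries and within batch 2, may be too small for the same reason. They may instead be too large, since LiTEC and WT libraries of the same number also deviated together.

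Axin2, Sp5 and Cdx1 did not overlap between the batches over all libraries. The share of all tested genes that did not overlap was not counted, so this describes the levels only. Axin2 had a lowest, median and highest level of 36.6, 45.8 and 55.7 CPM in batch 2 LiTEC cells, against 10.4, 14.8 and 17.8 CPM in batch 1 LiTEC cells. It had 39.3, 50.8 and 58.8 CPM in batch 2 WT cells, against 12.1, 16.4 and 20.9 CPM in batch 1 WT cells. The log2 fold change was 1.61 ± 0.06 over all libraries (edgeR adjusted p = 1.65e-21), a 3.06-fold higher level. It was 1.64 ± 0.08 in LiTEC cells and 1.59 ± 0.08 in WT cells, and the difference between them, 0.06 ± 0.11, had a 95% interval of -0.16 to 0.28. Sp5 had 2.76, 4.30 and 6.67 CPM in batch 2 LiTEC cells, against 0.149, 0.235 and 0.507 CPM in batch 1 LiTEC cells, a log2 fold change of 3.96 ± 0.36 (edgeR adjusted p = 1.32e-10). It had 2.47, 5.24 and 10.4 CPM in batch 2 WT cells, against 0.809, 1.24 and 1.46 CPM in batch 1 WT cells, a log2 fold change of 2.24 ± 0.26 (adjusted p = 2.42e-08). Sp5 thus rose in both genotypes, and the difference of 1.72 ± 0.51 between them was not called (edgeR adjusted p = 0.0611).

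Cdx1 had 2.41, 3.81 and 4.76 CPM in batch 2 LiTEC cells, against 0.381, 0.831 and 1.14 CPM in batch 1 LiTEC cells, and rose by 2.23 ± 0.22 (edgeR adjusted p = 1.23e-09). It had 1.99, 3.14 and 5.21 CPM in batch 2 WT cells, against 0.114, 0.210 and 0.634 CPM in batch 1 WT cells, and rose by 3.52 ± 0.27 (adjusted p = 3.58e-12). Both genotypes were separated by batch, and the difference of -1.28 ± 0.40 was not called (edgeR adjusted p = 0.0791). DESeq2 called this difference, and that of Sp5, at adjusted p-values of 0.0332 and 0.00946. Nkx1-2 had 0.860, 2.82 and 6.997 CPM in batch 2 LiTEC cells, against 0, 0.153 and 0.349 CPM in batch 1 LiTEC cells, where counts were 0 to 6 reads per library. It had 4.10, 9.14 and 16.7 CPM in batch 2 WT cells, against 1.07, 1.99 and 2.64 CPM in batch 1 WT cells. It rose by 4.23 ± 0.58 in LiTEC cells (edgeR adjusted p = 7.05e-07) and by 2.31 ± 0.32 in WT cells (adjusted p = 7.54e-07).

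The streak genes with smaller steps were T, Eomes, Mixl1 and Fgf8. T rose by 1.59 ± 0.39 in batch 2 LiTEC cells (edgeR adjusted p = 0.0021) and by 0.59 ± 0.18 in batch 2 WT cells (adjusted p = 0.0114). Eomes rose by 1.27 ± 0.12 in batch 2 WT cells (edgeR adjusted p = 5.73e-10), whose libraries did not overlap with those of batch 1, and was at 0.24 ± 0.12 in batch 2 LiTEC cells (adjusted p = 0.14). The difference of -1.03 ± 0.17 between the genotypes was called (edgeR adjusted p = 0.00057), 1 of 10 genes where 2.72% of all tested genes were called and 1.37% were called lower. Mixl1 rose by 0.93 ± 0.27 in batch 2 WT cells (edgeR adjusted p = 0.0096) and was at 0.29 ± 0.27 in batch 2 LiTEC cells. Fgf8 rose by 0.62 ± 0.22 over all libraries (edgeR adjusted p = 0.0241) and was called in neither genotype alone. Wnt3 was at 0.21 ± 0.22 over all libraries (edgeR adjusted p = 0.478).

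Notum went the other way. It had 10.2, 14.3 and 19.0 CPM in batch 2 LiTEC cells and 16.6, 19.9 and 21.8 CPM in batch 1 LiTEC cells, a log2 fold change of -0.46 ± 0.11 (edgeR adjusted p = 0.00169). In WT cells it had 29.7, 36.5 and 52.0 CPM in batch 2 and 40.2, 45.0 and 48.4 CPM in batch 1, at -0.24 ± 0.10 (edgeR adjusted p = 0.0692). Over all libraries it fell by 0.34 ± 0.08 (edgeR adjusted p = 0.000498). By genotype, 5 genes rose and 1 fell in batch 2 LiTEC cells, where 30.2% of all genes were called, 15.4% higher and 14.7% lower, and 7 rose and none fell in batch 2 WT cells, where 28.3% were called and 13.8% were called higher.

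**Figure D5:**
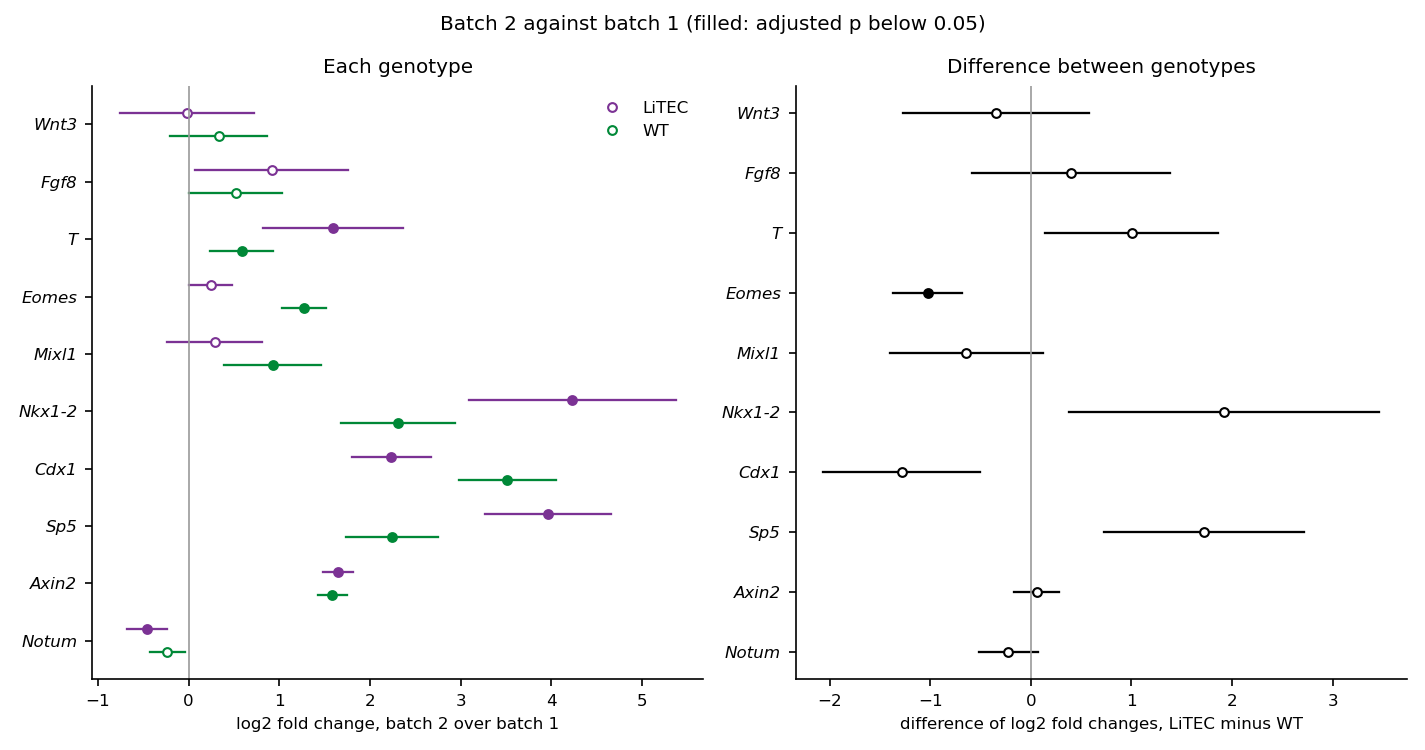
Log2 fold change of batch 2 over batch 1 for each gene (point) with 1.96 standard errors on each side (line), in LiTEC and WT cells on the left, and the difference of the LiTEC and WT values on the right; filled points have an adjusted p below 0.05. Axin2, Sp5, Cdx1 and Nkx1-2 lie between 1.59 and 4.23 in both genotypes, Notum lies below 0, and the difference is called for Eomes alone, at -1.03.

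Within batch 2 the replicates also stood apart in level. In the 12 pairs of the same group, replicate 3 was above replicate 2 in all 12 for Axin2, Sp5, Nkx1-2 and Notum, in 11 for Eomes and in 10 for Cdx1, against 7 for T and 4 for Wnt3. Nkx1-2 averaged 4.83 ± 1.95 CPM in replicate 3 and 1.82 ± 0.921 CPM in replicate 2 of LiTEC cells, and 12.9 ± 2.48 CPM in replicate 3 and 6.47 ± 1.85 CPM in replicate 2 of WT cells (SD, n = 6 groups each). Notum averaged 16.8 ± 1.52 CPM in replicate 3 and 11.4 ± 1.36 CPM in replicate 2 of LiTEC cells, against 19.5 ± 2.38 CPM in replicate 1, so that in LiTEC cells the highest replicate was 3 for Axin2 and 1 for Notum. These values are a description, with no test.

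The further Wnt targets were mixed between the batches: 8 of 17 rose and 4 fell in batch 2, where 20.4% of all genes were called higher and 20.1% lower. Tnfrsf19 rose by 1.21 ± 0.07 and Rnf43, a feedback inhibitor that removes Wnt receptors, by 1.11 ± 0.22, while Lef1 fell by 1.04 ± 0.11 on the log2 scale. Of the 42 transducers 11 rose and 11 fell, with the ligands Wnt5b at 1.88 ± 0.20 and Wnt5a at -1.13 ± 0.14. Of the 22 streak and mesendoderm genes 5 rose and 9 fell, and Otx2, a factor of formative and anterior cells, fell by 1.33 ± 0.07 in batch 2. Summed pluripotency markers were at 3562 to 4256 CPM in batch 2 libraries and 2663 to 3232 CPM in batch 1 libraries. The 10 markers did not move as a set: 6 rose and 4 fell in batch 2. Tfcp2l1, a naive factor among them, averaged 1207 CPM in batch 2 and 472 CPM in batch 1. Pou5f1 averaged 354 CPM in batch 2 and 399 CPM in batch 1, and Sox2 246 CPM and 263 CPM. The part of these differences in the values above was not tested.

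With the mean of each genotype and batch removed, the genes varied together over the 36 libraries as a description that shares library, depth and replicate number. Among the 8 members that averaged 1 CPM or more, Pearson's r of log2(CPM + 0.5) was 0.73 for Nkx1-2 and Sp5, 0.643 for Sp5 and Notum, 0.625 for Nkx1-2 and Axin2, 0.62 for Nkx1-2 with Eomes and with Cdx1, and 0.598 for Sp5 and Axin2. Values for T were 0.293 with Notum, 0.267 with Nkx1-2, 0.184 with Sp5 and 0.107 with Axin2, and values for Fgf8 were 0.493 with Notum, 0.154 with Nkx1-2 and -0.10 with Cdx1. By the same measure, the genes outside the 10 whose pattern was most like that of Axin2 were Lingo3 (0.803), Gbx2 (0.782) and Adad2 (0.762). For Sp5 they were Gm44997 (0.852), Apex1 (0.845) and Rrp12 (0.841), and for T they were Usp44 (0.595), Bcl2l13 (0.593) and Acap1 (0.584).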

How the data were processed

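RNA-seq had been made with a stranded TruSeq mRNA kit from TRIzol extracts, per the labels' protocols. The authors deposited raw counts per gene for all 36 libraries. FastQC, featureCounts and the builds mm10 and GRCm38 are named in the submitters' processing notes; which aligner and which strand setting were used is not given in the sources used here. Positions and exon lengths came from the GENCODE annotation of GRCm38, and promoters from RefSeq on GRCm38.p6. Fgf8, Mixl1, Notum and Cdx1 have no promoter shown.

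Genes were filtered with filterByExpr (minimum count 10), which left 18193 of 54842, and were tested with edgeR 4.0.16 (quasi-likelihood, TMM sizes, limma 3.58.1, R 4.3.3). The fit held the means of the 12 groups and a batch term, with 23 residual degrees of freedom, with the Benjamini-Hochberg adjustment made across every gene tested. The comparison of batches over all libraries used this fit. Those of batches in each genotype, of the batch step between genotypes and within batches used a batch effect in each genotype. CPM used TMM sizes, and RPKM the summed exon length. Standard errors were the log2 fold change divided by the root of F, and 95% intervals 1.96 of them on each side. Library totals were 11132970 to 21842256 counts, with a median of 16663713.5, and limit the precision of genes near 1 CPM. No per-sample column was left unused.

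The 10 genes and the lists were chosen with earlier results of these data known. The text names all 10 genes, up to 4 called genes of each list per comparison by size of fold change, and the 3 genes most like Axin2, Sp5 and T. Replicate numbers come from the titles. Same-numbered libraries deviated together from their group means over 14472 genes: r was 0.313 to 0.677 in all 18 lit and dark pairs and 0.271 to 0.609 in all 18 LiTEC and WT pairs, so the numbers were taken to pair the samples. The fit was tested on simulated data. Alternatives were a replicate block, no batch term, each batch alone, RLE sizes, DESeq2 1.42.0, other filters, only the groups compared, library sizes without Gm26917 and Gm42418, leaving out each library, and, chosen after the data were seen, batch or replicate effects in each genotype.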

Additional observations from a re-analysis of the deposited data

Results flagged for a closer look

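The step of Eomes between the batches differed between the genotypes by the test of that difference, at -1.03 ± 0.17 on the log2 scale (LiTEC minus WT, edgeR adjusted p = 0.00057). In LiTEC cells Eomes averaged 6.05 ± 1.06 CPM in batch 2 (SD, n = 12) and 5.13 ± 0.751 CPM in batch 1 (n = 6). In WT cells it averaged 10.3 ± 2.78 CPM in batch 2 (n = 12) and 4.21 ± 0.856 CPM in batch 1 (n = 6). The WT step was 1.27 ± 0.12 and the LiTEC step 0.24 ± 0.12. Batch 1 is replicate 1 alone and libraries of 1 replicate number deviated together, so the test counts libraries that are not independent and its p is too small.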

How the results depend on the processing

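The counts of genes called between LiTEC and WT cells, in lit and in dark libraries, stayed within 1.5 times under every alternative run, and so did the light comparisons apart from 1. In WT cells at 0 h, leaving out 1 library gave 0 to 1 called genes, with Mixl1 called without replicate 3 of the lit group. That fit called 460 of all 18193 tested genes. Eomes reversed between LiTEC and WT in batch 1 alone, a difference of log2(CPM + 0.5) with no test, to 0.30 in dark and 0.23 in lit cells. Its call in the dark was lost with no batch term (edgeR adjusted p = 0.0594), and that in the light with DESeq2 (adjusted p = 0.069). The fall of Nkx1-2 in lit cells was not called with no batch term (edgeR adjusted p = 0.0573), and Sp5 in the dark was not called with no batch term or in batch 2 alone (adjusted p = 0.48 and 0.179). Axin2 in the dark passed the threshold, at -0.18 to -0.20, without 1 of 7 libraries: LiTEC dark replicate 1 at 0 h and 3 at 1 or 4 h, and WT dark replicate 2 at each time or 1 at 4 h. In lit cells Axin2 passed without LiTEC replicate 3 at 4 h or WT replicate 2 at 0 h, at -0.18 in both, and Cdx1 passed, at 0.56 to 0.62, without LiTEC replicate 2 at 0 or 1 h, LiTEC replicate 3 at 4 h, or WT replicate 3 at 1 or 4 h. Cdx1 in lit cells also passed with DESeq2, with no filter, with a mean of at least 1 CPM and in a fit of only the groups compared (adjusted p = 0.0191, 0.0107, 0.0471 and 0.0339). The causes were not tested.

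Comparisons over time depended most on the fit. Paired by replicate number, the replicate block called 1 gene in dark cells at 1 h, 2 in dark cells at 4 h, 1 in lit cells at 1 h and 5 in lit cells at 4 h, against 0, 0, 0 and 2. Of all 18193 tested genes, the block called 526, 3835, 2384 and 3351, in that order, against 239, 2814, 1758 and 2448. A replicate block per genotype called 1, 3, 1 and 6, beside 776, 4418, 2714 and 3847 of all genes. No filter called 1, 2, 1 and 4, beside 293, 2523, 1676 and 2262 of all genes. A fit of only the groups compared called 1 at 1 h in dark and in lit cells, beside 191 and 1351 of all genes. DESeq2 called 1 in dark cells at 1 h and 1 in lit cells at 4 h, beside 380 and 2516 of all genes. A batch effect per genotype called 1 in dark and 4 in lit cells at 4 h, beside 3010 and 2649 of all genes. In lit cells at 4 h, no batch term called 0, batch 2 alone 1 and a mean of at least 1 CPM 1, beside 1415, 923 and 2452 of all genes. Leaving out 1 library gave 0 to 1 in dark cells at 4 h, with Axin2 called without replicate 3 of dark WT at 4 h. In lit cells at 4 h it gave 1 to 4, with 4 without replicate 1 of lit LiTEC at 4 h. The fits without these named libraries called 2343 and 1957 of all genes, in that order. The difference of the batch step between genotypes was called for 3 genes with DESeq2 and 4 with no filter, against 1. Of all genes, 609 and 661 were called, against 495.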
